A study of Mus musculus with 6 samples.

Results

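Otx2 and 6 further genes of the Otx family and of the formative epiblast, namely Otx1, Pou3f1, Fgf5, Foxd3, Sall2 and Utf1, were followed in mouse embryonic stem (ES) cells that expressed Sim2. They were taken by gene symbol from a table of 22602 genes, and all 7 were found there.

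Messenger RNA had been sequenced from 6 ES cell cultures. A group of 3 libraries, here called the Sim2 clones, came from 1 culture each of the clones A6, B8 and C4. These cells carry a Flag-tagged mouse Sim2 coding sequence followed by an IRES and Venus, a fluorescent reporter, at ROSA26, behind a promoter that tetracycline keeps silent. The other 3 libraries, EB3-0, EB3-1 and EB3-2, came from the parental line EB3 (EBRTcH3), which holds the same tetracycline-controlled transactivator and the Venus reporter but no Sim2 transgene. All cells of both groups were grown on gelatin with serum, LIF (a cytokine that keeps ES cells undifferentiated) and tetracycline. Tetracycline was withdrawn 3 h before the cells were passed, and RNA was prepared 26 h after passage. The comparison asked which transcripts changed when SIM2, a basic helix-loop-helix PAS transcription factor that acts with its partner ARNT, was present. The EB3 libraries are cultures of 1 line, and the clones each went through their own selection, so the presence of Sim2 and the derivation of the clones cannot be told apart.

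ES cells in serum and LIF resemble the naive epiblast of the blastocyst before it implants. As the embryo implants, the epiblast passes through a formative state in which naive genes are switched off and genes such as Otx2, Pou3f1 and Fgf5 are switched on, before it becomes primed for gastrulation. OTX2 is a homeodomain transcription factor that takes part in this exit from the naive state, where it works with OCT4 at enhancers, and it is later needed for the anterior neuroectoderm. OTX1 is its close relative in the developing brain.

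The values are RPKM, reads per kilobase of a gene's summed exons, scaled to the number of reads assigned to genes, so they can be compared between genes as levels per length. Between 25095861 reads (clone A6) and 28269340 reads (clone C4) were assigned to genes in a library. A single read in a transcript of 2 kb was worth 0.0177 to 0.0199 RPKM. Sim2 itself was at 196, 212 and 168 RPKM in A6, B8 and C4, against 0.130, 0.0917 and 0.104 RPKM in EB3-0, EB3-1 and EB3-2, so every library had the Sim2 level that its label called for. EB3-0 stood apart from the other EB3 libraries. The median absolute difference over the 11595 tested genes was 0.06 on the log2 scale between EB3-1 and EB3-2, against 0.25 between EB3-0 and either of them and 0.11 to 0.20 between clones. The difference of EB3-0 followed transcript length: its median log2 ratio to the mean of the other EB3 libraries was 0.30 for genes under 1500 bases and -0.31 for genes of 4000 bases or more. Results are therefore also given without EB3-0. In that fit the EB3 spread comes only from EB3-1 and EB3-2, the closest pair within a group, so its p-values may be too small.

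The start of the Otx2 gene is shown first, because Otx2 was the one gene of the 7 whose change passed the test, and the letters ACGTG, the core of the elements that SIM2 with ARNT and other PAS factors bind, were searched in it. RefSeq lists 4 start sites for Otx2, on the minus strand of chromosome 14, and the sequences are given in its build GRCm38.p6, whereas the expression table uses mm9. The 300-base windows around them (250 bases before to 50 bases after each start) were searched on both strands. The 250 bases before the most upstream start, chr14:48667645-48667894, hold no ACGTG. The same 5 letters, set in capitals, occur in the windows of the third start site (excerpt chr14:48665316-48665345) and of the fourth (excerpt chr14:48662712-48662741). They also lie within the E-box CACGTG, in capitals, before the single start of Foxd3 (excerpt chr4:99656070-99656099, plus strand), which is shown beside them for comparison.
Otx2 start 1: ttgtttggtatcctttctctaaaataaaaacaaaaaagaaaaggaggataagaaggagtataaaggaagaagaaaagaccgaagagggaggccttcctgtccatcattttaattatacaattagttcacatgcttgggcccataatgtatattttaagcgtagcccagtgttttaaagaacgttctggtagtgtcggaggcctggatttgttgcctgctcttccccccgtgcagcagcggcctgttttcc
Otx2 start 3: tgtaattaagggACGTGtgcccctcggatt
Otx2 start 4: gttagtgctggaACGTGgaggaagctgctc
Foxd3: gtcacgcgcggtCACGTGgccccgcctccc

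Counted from 0 at the start site, ACGTG began at position -224 at the third Otx2 start and at position 5, inside the transcript, at the fourth. Much of these windows is itself transcribed. Exons of Otx2 transcripts (vM1 annotation) cover 232 of the 250 bases before the third start and 138 of those before the fourth. In Foxd3 ACGTG began at positions -217 and -216 on opposite strands, because CACGTG reads the same on both. Of the 32851 windows of the same length in the RefSeq table, 19.6% held ACGTG and 7.15% held CACGTG. These shares are per window, and a gene with 4 windows, such as Otx2, has more places where a motif can occur. The letters TAATCC, a site type of OTX homeodomains, occurred in the window of the third Otx2 start and in 7.06% of all windows. The letters ACAAAG, the core of SOX sites, occurred once in the Fgf5 window and in 18.7% of all windows. The octamer ATTTGCAT was in none of the 9 windows of the 5 matched genes and in 1.74% of all. The windows of Sall2 and Utf1 held none of the 5 motifs, and Otx1 and Pou3f1 were not matched in the promoter table.

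Otx2 (chr14:49277859-49282547, mm9, minus strand) fell strongly in the Sim2 clones. Its level was 2.96, 3.24 and 2.71 RPKM in A6, B8 and C4, against 9.93, 10.7 and 13.0 RPKM in EB3-0, EB3-1 and EB3-2. These rest on 128, 144 and 132 reads in the clones and on 467, 495 and 583 reads in EB3. The groups did not overlap, since the highest clone lay far below the lowest EB3 library. The clones averaged 2.97 ± 0.267 RPKM, and EB3 averaged 11.2 ± 1.57 RPKM (SD, n = 3 each), so that the clones held 26.5% of the EB3 level and EB3 was 3.77-fold higher. On the log2(RPKM + 0.5) scale, where low genes show smaller changes than they have, the difference was -1.75 with an SE of 0.14 and a 95% interval from -2.08 to -1.42 (limma, adjusted p = 0.00378). Counted from the lowest, its difference ranked 6 among all 11595 tested genes. The exact permutation test of Otx2 alone gave p = 0.1, two-sided, which is the smallest value that 3 libraries against 3 allow.

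Each clone on its own lay near the same value, at -1.75 (A6), -1.64 (B8) and -1.86 (C4) against the EB3 mean on the log2 scale. The spread between clones was 8.98% of their mean (coefficient of variation), close to the 8.62% that counting about 135 independent reads would give. In EB3 the spread was 14.0% and counting alone would give 4.41%, with EB3-2 the highest library. In every library more genes had 2 reads (724 to 777 genes) than 1 read (177 to 232 genes), as happens if both ends of a fragment count separately, and then the true counting error is larger than these figures. Without EB3-0 the Otx2 difference was -1.83 (limma, adjusted p = 0.00820), and it was also called when EB3-1 and EB3-2 were replaced by their mean (adjusted p = 0.0212). In RNA from whole cultures, fewer cells that express Otx2 and less Otx2 RNA in each cell cannot be told apart. The reads were counted over a listed transcript of 1724 bases, whose start lies 4772 bases inside the most upstream annotated start (vM1 annotation, 8 transcripts). RNA specific to the upstream exons was therefore not counted. The kit did not mark strand, and no listed gene overlaps any of the 7.

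Among all 11595 genes that reached a mean of 1 RPKM and were tested, 81 (0.699%) were called at an adjusted p under 0.05, of which 40 were higher and 41 (0.354%) lower in the clones. Of the 7 genes, 5 passed the filter on low values, and Otx2 was the 1 that was called. Groups of 3 that did not overlap were found for 2 of the 5, Otx2 and Sall2, against 26.1% of all tested genes. Otx1 and Fgf5 stayed under the filter.

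**Figure D1:**
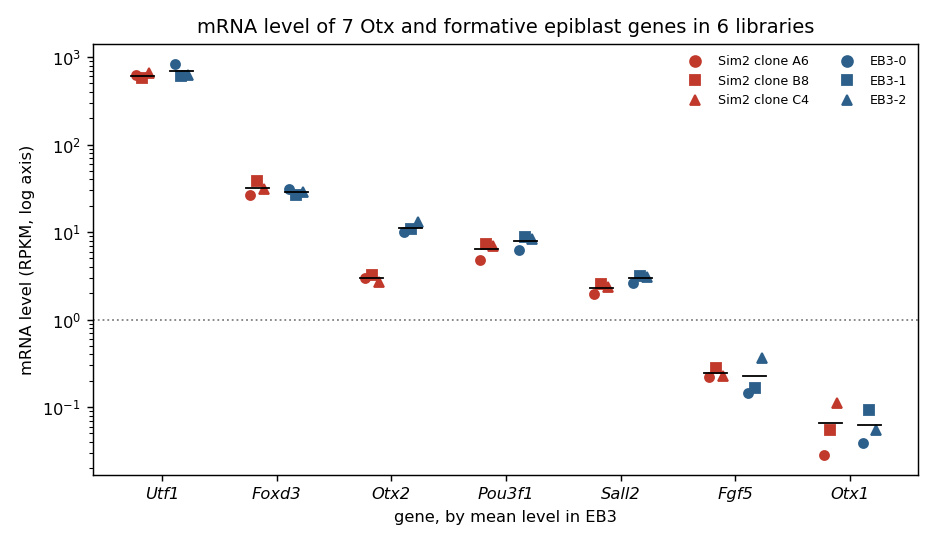
mRNA level (RPKM, log axis) of the 7 genes in each of the 6 libraries, with Sim2 clones in red, EB3 in blue and a bar at each group mean. The dotted line marks 1 RPKM, the mean a gene had to reach to be tested. For Otx2 the clones (2.71 to 3.24 RPKM) lie below the 3 EB3 libraries (9.93 to 13.0 RPKM), whereas Foxd3, Pou3f1, Utf1, Fgf5 and Otx1 overlap.

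Otx1 (chr11:21894767-21901654, minus strand) was barely detected, at 0.0282, 0.0550 and 0.113 RPKM in A6, B8 and C4 and at 0.0389, 0.0927 and 0.0542 RPKM in EB3-0, EB3-1 and EB3-2. These values are 2 to 9 reads in a library, and the groups overlapped throughout (log2 difference 0.01, exact permutation p = 0.9). Crx, the third member of the family and a photoreceptor factor, had 0 reads in all 6 libraries, which allows up to 0.0365 to 0.0411 RPKM where 3 reads are taken as the limit. Otx2 thus made up 99.1%, 98.3% and 96.0% of the summed RPKM of the family in A6, B8 and C4, and 99.6%, 99.1% and 99.6% in EB3-0, EB3-1 and EB3-2. The mean share was 97.8% ± 1.59 in the clones and 99.4% ± 0.261 in EB3 (SD, n = 3), a difference of -1.65 percentage points (exact permutation p = 0.1, the smallest possible). Crx had no reads, and the Otx1 means were close (clones 0.0653, EB3 0.0619 RPKM), so a fall of Otx2 alone lowers this share. The share difference and its test therefore restate the Otx2 fall and are no separate result. The size of the share difference also varied with the few Otx1 reads. Without C4, which had 9 of them, it was -0.75 points, and without A6 it was -2.28. In both groups Otx2 was nearly the whole family, and no rise of Otx1 was detectable at this depth.

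Pou3f1 (chr4:124334889-124337899, plus strand) encodes OCT6, a POU transcription factor of the formative epiblast. It was at 4.75, 7.27 and 6.97 RPKM in A6, B8 and C4 and at 6.29, 8.83 and 8.39 RPKM in EB3-0, EB3-1 and EB3-2. The lowest library of each group, A6 and EB3-0, set most of the spread, and the groups overlapped. The log2 difference was -0.30 (SE 0.19, 95% interval -0.74 to 0.15, limma adjusted p = 0.473), and it was -0.44 without EB3-0 (adjusted p = 0.193) and -0.12 without A6 (adjusted p = 0.785). A fall of the size seen in Otx2 lies outside that interval.

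Fgf5 (chr5:98683203-98706049, plus strand), a secreted growth factor widely used as a marker of the post-implantation epiblast, was close to the detection limit. Its level was 0.223, 0.279 and 0.226 RPKM in A6, B8 and C4 and 0.147, 0.164 and 0.368 RPKM in EB3-0, EB3-1 and EB3-2, or 10 to 24 reads in a library. The EB3 libraries held both the lowest values and the highest (log2 difference 0.04, exact permutation p = 0.8). A difference between the groups was not detectable at this depth.

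Foxd3 (chr4:99322990-99325362, plus strand), a forkhead factor of ES cells and the early epiblast, was at 26.8, 38.2 and 31.1 RPKM in A6, B8 and C4 and at 30.8, 26.8 and 28.5 RPKM in EB3-0, EB3-1 and EB3-2. It was the only 1 of the 5 tested genes whose difference was above 0, at 0.14 (SE 0.14, 95% interval -0.17 to 0.45, limma adjusted p = 0.624), and without EB3-0 it was 0.20 (adjusted p = 0.436). The highest library was clone B8, and without it the difference was 0.012 (adjusted p = 0.979). A stretch of 315 bases of its transcript has a copy on chromosome 13 with 90.5% identity, so some of its reads may have been placed there. No copy of at least 100 bases and 90% identity was found for the other 6 genes.

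Sall2 (chr14:52930856-52948345, minus strand), a zinc finger factor of the spalt family, was at 1.98, 2.57 and 2.34 RPKM in A6, B8 and C4 and at 2.62, 3.16 and 3.09 RPKM in EB3-0, EB3-1 and EB3-2. The groups did not overlap, but by a narrow margin between B8 and EB3-0. The log2 difference was -0.31 (SE 0.16, 95% interval -0.67 to 0.05) and did not pass the test (limma, adjusted p = 0.356; 0.169 without EB3-0).

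Utf1 (chr7:147129755-147131011, plus strand), a chromatin-bound factor abundant in ES cells, was at 624, 572 and 650 RPKM in A6, B8 and C4 and at 843, 603 and 631 RPKM in EB3-0, EB3-1 and EB3-2. EB3-0 stood above all others, at 0.45 on the log2 scale over the mean of the other EB3 libraries, in a gene whose transcript has 1160 bases. The difference between the groups was -0.16 (SE 0.15, 95% interval -0.49 to 0.18, limma adjusted p = 0.622), and without EB3-0 it was -0.01.

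The 7 genes covered most of the range of expression. Utf1 lay above 99.8% of all listed genes by its mean over the 6 libraries, Foxd3 above 86.1%, Otx2 and Pou3f1 above 66.6%, Sall2 above 56.1%, Fgf5 above 39.8% and Otx1 above 32.8%. In EB3 the order of the mean levels was Utf1, Foxd3, Otx2, Pou3f1, Sall2, Fgf5 and Otx1. In the clones Otx2 and Pou3f1 had changed places and the order was otherwise the same. No gene's 3 values overlapped those of its neighbour in the order, in either group. Differences between genes that are close in level should be read with care, because the aligner used does not split a read over an intron. Pou3f1 and Foxd3 are listed without an intron, whereas Otx2 has 2965 bases spliced out.

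Ratios of RPKM within a library are free of any factor that scales all its genes alike. With 0.5 added, as here, this holds only approximately at low levels. A trend with transcript length, as in EB3-0, remains in the ratios. Otx2 over Pou3f1, as a ratio of RPKM + 0.5, was 0.659, 0.482 and 0.430 in A6, B8 and C4 and 1.54, 1.20 and 1.51 in EB3-0, EB3-1 and EB3-2. Otx2 was thus below Pou3f1 in every clone and above it in every EB3 library, with a log2 difference of -1.45. Against Sall2 the ratio was 1.39, 1.22 and 1.13 in the clones and 3.34, 3.07 and 3.74 in EB3, a log2 difference of -1.44. Against Foxd3 and Utf1 the log2 differences were -1.89 and -1.59. None of the 4 ratios overlapped between groups, and each exact permutation test gave p = 0.1, the smallest possible, and adjustment over the 4 ratios leaves it at 0.1. All 4 share the Otx2 values.

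**Figure D2:**
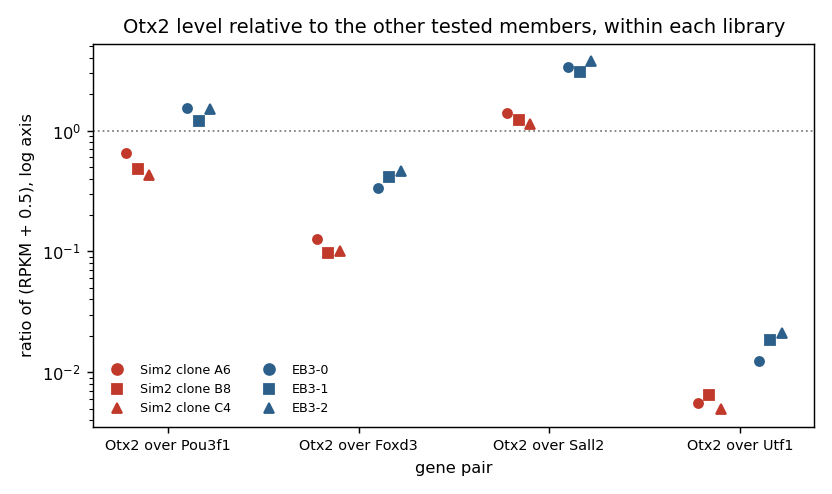
Ratio of Otx2 to Pou3f1, Foxd3, Sall2 and Utf1 within each library, computed on RPKM + 0.5 and drawn on a log axis, with Sim2 clones in red and EB3 in blue. The dotted line marks equal values. The clones lie below EB3 for all 4 genes, and for Pou3f1 they lie on the other side of the line (0.430 to 0.659 against 1.20 to 1.54).

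Of 17 other genes of the formative and primed epiblast, all tested, 2 fell and none rose (limma, against 0.699% of all tested genes called), and 6 of the 17 had an unadjusted p under 0.05, against 17.8% of all tested genes. Lef1, a transcription factor at the end of the Wnt pathway (chr3:130813389-130926249), was at 1.09, 1.25 and 1.01 RPKM in A6, B8 and C4 and at 2.98, 3.71 and 3.65 RPKM in EB3-0, EB3-1 and EB3-2. Its log2 difference was -1.29 (SE 0.16, limma adjusted p = 0.0216). Fgf15, a secreted growth factor (chr7:152082437-152086856), was at 4.54, 3.35 and 4.01 RPKM in the clones and at 8.15, 9.54 and 8.61 RPKM in EB3, a difference of -1.06 (SE 0.15, limma adjusted p = 0.0283). Both lie clear of overlap between the groups, but neither was called once EB3-1 and EB3-2 were replaced by their mean (limma, adjusted p = 0.121 and 0.131). Each was called in 10 of 17 alternative settings and in 1 of the 6 fits that left out a library, the fit without EB3-0. In that fit 5.97% of all genes tested were called. Zic5, a zinc finger factor, was then also lower (log2 difference -0.87, limma adjusted p = 0.0312), and Etv4, an ETS factor, was higher (0.56, adjusted p = 0.0402), both named here after their values were seen.

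The median difference of the 17 genes was -0.21, against -0.01 over all tested genes. Of the 17, 14 were lower in the clones, against 50.9% of all tested genes. The list was chosen with earlier results of these data known, so its direction and its calls do not test a shift of formative genes. The groups did not overlap for 5 of the 17, near the 26.1% of all tested genes. The most abundant of them, Lin28a, an RNA-binding repressor of let-7 miRNAs, averaged 194 ± 15.9 RPKM over the clones, against 227 ± 19.8 RPKM over EB3 (SD, n = 3), and was not called (log2 difference -0.23, limma adjusted p = 0.308). Zic2, a zinc finger factor named here after its values were seen, had the lowest difference of the list, -1.36, but its clones were far apart (2.22, 6.21 and 6.22 RPKM against 12.1 to 12.4 RPKM in EB3) and it was not called (limma, adjusted p = 0.0975).

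Of the 12 paralogs of the 7 genes, 4 were tested and none was called (limma; 1 had an unadjusted p under 0.05). Fgf4, the growth factor that drives ES cells out of the naive state, was the most abundant of them, with 96.0 ± 13.0 RPKM over the clones and 86.7 ± 1.20 RPKM over EB3 (SD, n = 3; log2 difference 0.14, limma adjusted p = 0.557). Of the naive pluripotency genes 12 were tested, and none was called (limma; 3 had an unadjusted p under 0.05), with a median difference of -0.08. The most abundant of these, Zfp42 (REX1), was at 415, 439 and 419 RPKM in A6, B8 and C4 and 536, 526 and 511 RPKM in EB3-0, EB3-1 and EB3-2 (log2 difference -0.31, limma adjusted p = 0.145; without EB3-0 -0.29, adjusted p = 0.0350, which is called). Klf5, also named after its values were seen, had the highest difference of that list, 0.81, and missed the threshold (limma, adjusted p = 0.0606), but was called without EB3-0 (0.63, adjusted p = 0.0127). Of the 2 core pluripotency genes 0 were called (limma; 0 had an unadjusted p under 0.05), and Pou5f1 (OCT4) differed by -0.16 (limma, adjusted p = 0.570). Of 8 gastrulation genes only Eomes reached the filter, and it was not called (log2 difference 0.17, limma adjusted p = 0.702).

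**Figure D3:**
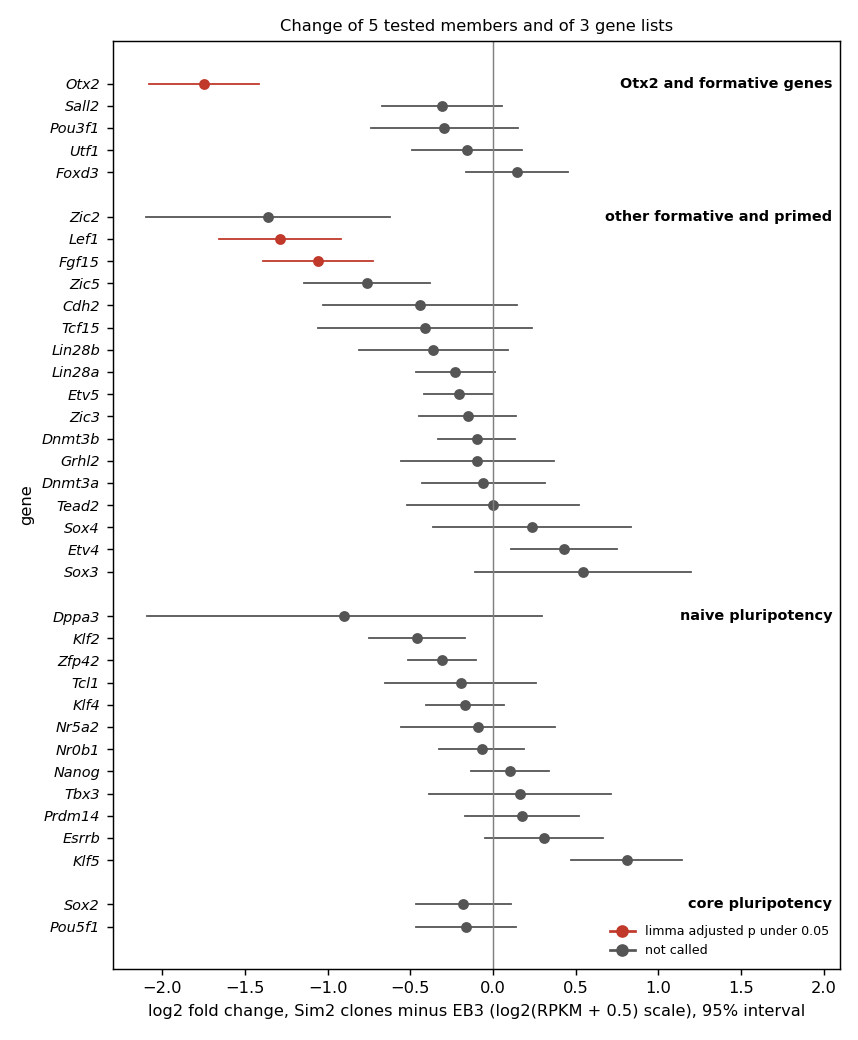
Log2 fold change (Sim2 clones minus EB3, on the log2(RPKM + 0.5) scale) with its 95% interval for the 5 tested genes and for the tested genes of 3 lists, with calls (limma, adjusted p under 0.05) in red. Otx2 has the lowest value (-1.75) and is called, as are Lef1 (-1.29) and Fgf15 (-1.06) of the formative list, and no naive or core gene is called.

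Marker genes placed both groups as ES cells. Pou5f1, Sox2, Nanog, Utf1 and Zfp42 summed to 3177 to 3194 RPKM in each clone, against 3340 to 3920 RPKM in each EB3 library. Of 26 listed marker genes of 6 cell types, 12 were tested and none was called (limma; 4 had an unadjusted p under 0.05), and none was at 0 in every library. Some marker sums nevertheless moved with the groups. The 5 primitive endoderm markers summed to 3.75 to 4.97 RPKM in each clone, against 2.43 to 3.23 RPKM in each EB3 library. The 3 listed trophoblast markers summed to 0.692 to 0.796 RPKM in each clone, against 0.419 to 0.649 RPKM in each EB3 library. All 3 were under the filter, and their sum was mostly Cdx2, at 16 to 40 reads in a library. Gata3 overlapped between the groups, and Elf5 went the other way (0 to 0.0540 RPKM in the clones, 0.0662 to 0.121 RPKM in EB3). The 5 neural markers, mostly Tubb3, summed to 85.3 to 106 RPKM in each clone, against 125 to 143 RPKM in each EB3 library. Sums of the mesoderm and streak markers (1.96 to 2.69 and 1.72 to 2.52 RPKM) and of the fibroblast markers, mostly Thy1 (10.7 to 13.8 and 10.0 to 13.3 RPKM), overlapped. The part of other cell types in the lower Otx2 level was not tested.

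The 5 tested genes whose profile over the 6 libraries was most like that of Otx2, by the root mean square difference of centred log2 values, were Fetub (0.29), Hist2h3c1 (0.32), Lef1 (0.34), H2afz (0.36) and Egr1 (0.36). All 5 were chosen for a profile like that of Otx2, so that their direction is no result. Fetub, a secreted protease inhibitor, averaged 1.08 ± 0.139 RPKM over the clones, against 4.13 ± 0.980 RPKM over EB3. Egr1, an immediate early transcription factor, had 7.09 ± 0.996 RPKM and 17.8 ± 1.35 RPKM, and H2afz, the histone variant H2A.Z, had 33.4 ± 4.36 RPKM and 83.6 ± 1.94 RPKM (SD, n = 3). Hist2h3c1 encodes a histone H3 with near-identical copies and H2afz has processed copies in the genome, so their reads may have been divided among copies. With the largest absolute difference in place of the root mean square, or with a pseudocount of 1, 3 of the 5 genes were found again.

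**Figure D4:**
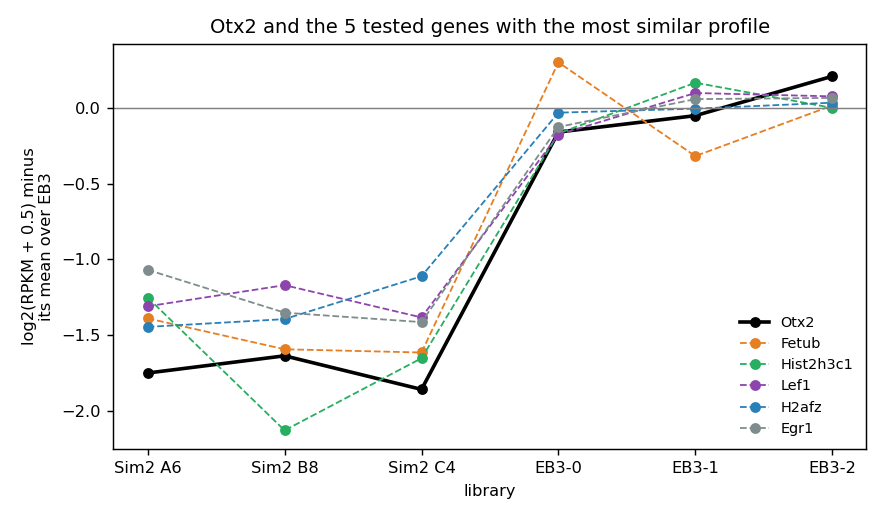
Log2(RPKM + 0.5) of Otx2 (black) and of the 5 most similar tested genes in each library, relative to each gene's EB3 mean. Otx2 is at -1.75, -1.64 and -1.86 in the clones and between -0.16 and 0.21 in EB3, and lines join libraries only to guide the eye.

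Of the genes within 2 Mb on either side, 17 were tested and none was called (limma; 2 had an unadjusted p under 0.05). Their median difference was -0.00, with a range from -0.51 to 0.36, and the medians of the single clones were 0.04 (A6), -0.01 (B8) and -0.02 (C4). The nearest tested gene, 6720456H20Rik, lay 179.8 kb away and differed by 0.29 (SE 0.20, limma adjusted p = 0.498). Around the other 6 genes the medians were between -0.09 and 0.11, and 1 of the 58 tested neighbours of Utf1 was called.

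**Figure D5:**
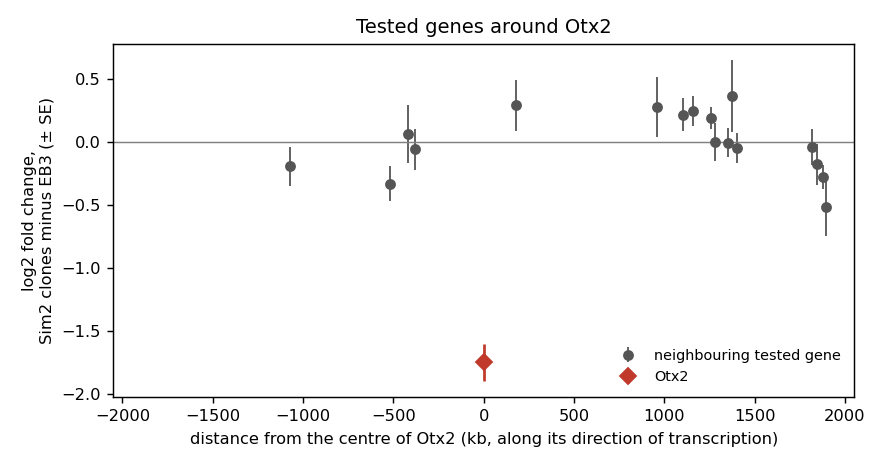
Log2 fold change (± SE) of Otx2 (red) and of the 17 tested genes within 2 Mb, by distance from the centre of Otx2 in its direction of transcription. Otx2 is at -1.75 and its neighbours are between -0.51 and 0.36.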

How the data were processed

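Per the labels and the study's methods, the authors made paired-end libraries with a kit that does not mark strand, aligned reads to mm9 with BWA (version not given in the sources used here), summed reads over exons and deposited RPKM values for 6 libraries. Their own test was a model of read counts. From the deposited RPKM values whole reads (within 0.01 read) were recovered for 100% of values, but no count model was run. Values were tested as log2(RPKM + 0.5) with limma 3.58.1 (intensity trend, Benjamini-Hochberg adjustment, R 4.3.3) in genes with a mean of at least 1 RPKM, 11595 of 22602, and tested on simulated data first. Single values were compared with a two-sided exact permutation test. The limma p-values set each difference against the spread between cultures within the groups, moderated over genes. They do not cover the spread between separately derived control lines, since all EB3 libraries came from the same line. Promoter windows came from RefSeq (GRCm38.p6), and 5 of 7 genes matched. GC content was matched for 96.1% of tested genes. Genes named were the 7, the called and the most abundant tested gene of each list, and the 5 most like Otx2, besides Zic2, Zic5, Etv4, Klf2 and Klf5, named after their values were seen, the nearest tested neighbour of Otx2, and genes given as checks or marker sums. The 7 genes and all lists were chosen with earlier results of these data known. The study itself singled out Otx2 by combining these libraries with its SIM2 binding sites and published chromatin interactions. Alternatives were other pseudocounts, filters, scalings, trend removals, averaged libraries and libraries left out.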

Additional observations from a re-analysis of the deposited data

How the results depend on the processing

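The Otx2 fall was called under all 17 alternatives, with log2 differences from -1.88 to -1.62 and limma adjusted p from 0.00277 to 0.0345, and Pou3f1, Foxd3, Sall2 and Utf1 were called under none of the 17. The number of genes called (81) depended on the setting. It was 28 (14 higher) with no filter on low values, 30 (14 higher) without the intensity trend, 238 (131 higher) with the length trend of each library removed and 6 (4 higher) with EB3-1 and EB3-2 averaged. With GC and length trends removed, an alternative chosen after seeing the data, it was 205 (120 higher, 58.5%, against 49.4%). Leaving out a library gave 6 to 692: 20 without A6, 17 without B8, 7 without C4, 6 without EB3-1, 6 without EB3-2 and 692 without EB3-0. Of the 17 other formative genes, 2 were called, against 0 with no filter, 0 with EB3-1 and EB3-2 averaged and 0 to 4 with a library left out (4 without EB3-0, of which 3 were lower and 1, Etv4, higher, and 0 without each of the other 5). Of the naive genes, 0 were called, against 1 (Klf2, lower) with GC and length trends removed and 0 to 2 with a library left out (2 without EB3-0, Klf5 higher and Zfp42 lower). The cause was not tested. The 5 genes most like Otx2 kept 3 by the largest absolute difference and 3 with a pseudocount of 1. The differences of Otx1 and Fgf5, at a few reads, changed sign with a library left out, from -0.053 to 0.055 for Otx1 and from -0.032 to 0.18 for Fgf5. No paired analysis was possible because the groups share no replicate number. At these depths a gene at the level of Otx1 or Fgf5 has 2 to 24 reads, too few to show a moderate change.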
